A study of Mus musculus with 11 samples.

Results

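Proximal T cell receptor (TCR) signalling was described through 9 genes across 5 mouse thymocyte genotypes: the kinases Lck and Zap70, the adaptors Lat, Lcp2 and Themis, the phospholipase Plcg1, and the surface receptors Cd5, Cd6 and Cd2. They were named by symbol as members of the pathway, with earlier results of these data known, and all 9 were found in both count tables, which list 53801 and 55471 genes. All libraries came from thymus cells sorted as CD24-negative and TCRβ-negative, a fraction without the bulk of developing αβ T cells. Thymocytes of postnatal day 0 carried Bcl11b +/+, Bcl11b +/N440K or Bcl11b D/N440K, with 2 libraries each. N440K is a changed residue of Bcl11b, a zinc finger factor of the T lineage, and the labels do not define D. Thymocytes of postnatal day 7 were Tcf7 +/+, with 2 libraries, or labelled Tcf7 F/F:Vav1-Cre, with 3 libraries: a floxed gene with a Cre that the Vav1 promoter drives in blood cells at large, not in T cells alone. Tcf7 encodes TCF-1, another factor of early T cell development. Nothing in the labels says that the libraries of a group came from separate animals, so p-values measure only the spread between these libraries. Because age and table differ, levels were compared only within a table, and changes between tables only by a test of the difference. Such a test does not separate the mutation from age or experiment.

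When the TCR is engaged, Lck phosphorylates the CD3 and ζ chains, and Zap70 docks there and is activated in turn. Zap70 phosphorylates the membrane adaptor Lat and the cytosolic adaptor SLP-76 (gene Lcp2), which together recruit phospholipase Cγ1 (Plcg1), the enzyme whose products open the calcium and protein kinase C branches. Themis is an adaptor that binds Grb2 and tunes TCR signals in thymocytes. Cd5 and Cd6 are related scavenger receptor family proteins whose tails set the strength of signalling, and Cd2 is an adhesion receptor that binds Cd48 in mice. Innate lymphoid cells and NK cells use several of the same molecules, or their relatives Syk, Plcg2 and Lat2, without a TCR.

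Positions are those of GENCODE M21 on GRCm38, where all 9 are protein-coding genes. Lck (ENSMUSG00000000409) is at chr4:129548344-129573641 on the minus strand, Zap70 (ENSMUSG00000026117) at chr1:36761798-36782818 on the plus strand and Lat (ENSMUSG00000030742) at chr7:126363824-126369570 on the minus strand. Lcp2 (ENSMUSG00000002699) is at chr11:34046920-34092295, Plcg1 (ENSMUSG00000016933) at chr2:160731300-160775760 and Themis (ENSMUSG00000049109) at chr10:28668360-28883818, each on the plus strand. Cd2 (ENSMUSG00000027863) is at chr3:101275899-101287939 on the minus strand. Cd5 (ENSMUSG00000024669) and Cd6 (ENSMUSG00000024670) are neighbours on the minus strand of chromosome 19, at chr19:10717116-10739002 and chr19:10789341-10830058, 50338 bp apart with A430093F15Rik between them. The strand of counting is not given in the sources used here, so reads of overlapping genes on the other strand cannot be told apart. Plcg1 shares 379 bp of exon with Zhx3 and 248 bp with the antisense gene Gm27206, Lcp2 shares 282 bp with 4930469K13Rik, and Themis 153 bp with 4930519F09Rik. Cd5, Cd6 and Cd2 overlap the exons of no other gene in the annotation.

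Promoters are shown for Lck and Lcp2, whose RNA differed little between groups, and for Plcg1, Themis and Cd5, whose RNA differed most among the genes with a window. RefSeq windows (GRCm38.p6) were matched for 7 of the 9 genes. The 250 bases before the annotated start are printed 5′ to 3′ on the gene's strand. Capitals mark every match to the letters searched, on either strand. For TCF/LEF the letters were CTTTGAN, and a variant form of the same site, CTTTGTN, counted too. For GATA factors the letters AGATAAN were searched, and for the same factors the variant letters AGATAGN. The RUNX search used TGTGGTN on both strands. The ETS search used AGGAAGN on both strands. An E-box was any CANNTG in the window. The BCL11 search used TGACCAN on both strands.
Lck, the second listed start, chr4:129558373-129558622, minus strand: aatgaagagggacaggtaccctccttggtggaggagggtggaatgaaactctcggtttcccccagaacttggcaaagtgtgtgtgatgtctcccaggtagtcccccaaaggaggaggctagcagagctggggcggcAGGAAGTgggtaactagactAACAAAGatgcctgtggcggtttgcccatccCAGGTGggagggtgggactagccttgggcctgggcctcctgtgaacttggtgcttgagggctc
Lcp2, chr11:34046678-34046927, plus strand: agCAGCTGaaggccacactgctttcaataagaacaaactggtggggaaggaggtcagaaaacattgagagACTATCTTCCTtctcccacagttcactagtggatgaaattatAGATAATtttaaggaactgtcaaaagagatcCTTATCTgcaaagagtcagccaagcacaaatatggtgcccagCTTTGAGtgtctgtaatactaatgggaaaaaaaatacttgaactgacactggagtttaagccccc
Plcg1, chr2:160731060-160731309, plus strand: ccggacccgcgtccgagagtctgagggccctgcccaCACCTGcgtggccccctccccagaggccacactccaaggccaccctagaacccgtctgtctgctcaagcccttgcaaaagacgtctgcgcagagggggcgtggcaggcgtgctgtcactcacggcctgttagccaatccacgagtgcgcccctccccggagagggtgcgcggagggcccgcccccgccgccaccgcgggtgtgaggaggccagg
Themis, the first listed start, chr10:28668110-28668359, plus strand: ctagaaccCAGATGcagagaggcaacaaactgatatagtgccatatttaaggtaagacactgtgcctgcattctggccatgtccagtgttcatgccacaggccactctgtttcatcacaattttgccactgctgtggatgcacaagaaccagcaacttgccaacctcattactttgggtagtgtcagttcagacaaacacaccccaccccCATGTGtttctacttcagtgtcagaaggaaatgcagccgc
Cd5, chr19:10738975-10739224, minus strand: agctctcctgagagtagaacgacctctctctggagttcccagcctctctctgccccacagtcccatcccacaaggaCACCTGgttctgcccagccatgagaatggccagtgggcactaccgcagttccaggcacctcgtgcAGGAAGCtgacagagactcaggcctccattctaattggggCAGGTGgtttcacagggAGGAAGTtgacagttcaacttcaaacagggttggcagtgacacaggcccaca
The 7 genes have 11 windows in all, since Lck, Zap70 and Themis have more than 1 listed start. In windows that also take in the 50 bases after the start, TCF/LEF letters were found in 4 of the 11, of Lck, Zap70 and Lcp2, against 31.1% of all 32851 RefSeq windows of that length. The match in the Lck stretch lies on the other strand and that in the Lcp2 stretch on the printed one. The window of the first listed Lck start, not printed, held RUNX, ETS and E-box letters but no TCF/LEF letters. GATA letters were found in 1 of 11, that of Lcp2, where the first GATA match overlaps an ETS match, against 18.6% of windows. RUNX letters were found in 3 of 11, of Lck, Zap70 and Lat, against 16.7%. ETS letters were found in 7 of 11 against 35.3%, E-box letters in 11 of 11 against 72.3%, and BCL11 letters in 0 of 11 against 13.5%. Plcg1, Themis and Cd5 had none of the TCF/LEF, GATA or RUNX letters in their windows. Zap70 and Lat, whose RNA also fell in D/N440K, did hold such letters. The share of all windows without any of these letters was not computed. A match describes letters only, and no match says only that these letters are not in the window.

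Total counts were 999381 to 1246272 in the 6 Bcl11b libraries and 1273997 to 1842717 in the 5 Tcf7 libraries. Bcl11b RNA stood at 506 to 641 CPM (counts scaled to library size and composition) in Bcl11b +/+, 185 to 225 CPM in +/N440K and 152 to 204 CPM in D/N440K. Tcf7 RNA was not lower in the F/F:Vav1-Cre-labelled libraries (658 to 847 CPM) than in Tcf7 +/+ (552 to 594 CPM). Those counts cover all exons, so they do not check a deletion of some of them, and the group is called by its label. The Tcf7 +/+ pair stood apart in its spread, with a chi-square per degree of freedom of 4.94, against 1.14 to 2.16 for the other pairs. The 6 T lineage markers, Bcl11b and Tcf7 among them, were present in every group. They summed to 2702 to 3107 CPM in Bcl11b +/+, 2003 to 2138 CPM in +/N440K and 1940 to 2023 CPM in D/N440K, with 4 and 3 of 6 lower, and to 1907 to 1954 and 1774 to 1993 CPM in the Tcf7 groups, with 3 lower and 2 higher. In RNA of sorted cells, fewer cells of a type and less RNA per cell cannot be told apart.

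With the Bcl11b mutations, the falls were in Plcg1, Cd5, Cd6, Themis and, less steeply, Lat, Zap70 and, in D/N440K, Lcp2, while Lck and Cd2 were called in neither genotype. A gene was called when its edgeR adjusted p, over all tested genes, was under 0.05. In +/N440K, 6 of the 9 genes fell and 0 rose, against 5.3% of all 10910 tested genes that fell and 4.79% that rose. In D/N440K, 7 of 9 fell and 0 rose, against 6.31% and 6.1% of all genes. In the F/F:Vav1-Cre-labelled libraries, 5 of 9 fell and 0 rose, against 11.1% and 12% of 12366 tested genes: Themis, Cd6, Cd2, Cd5 and Plcg1. The median log2 fold change of the 9 genes was -0.87, -1.05 and -0.99 in these comparisons, and that of all tested genes was 0.00, 0.00 and -0.01. Both Bcl11b comparisons share the same 2 +/+ libraries. Calls over all genes came to 726 in place of 1101 in +/N440K without Bcl11b +/+ replicate 1. In the Tcf7 comparison they came to 4612 in place of 2863 without Tcf7 +/+ replicate 1, and to 1700 without F/F:Vav1-Cre replicate 3.

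**Figure D1:**
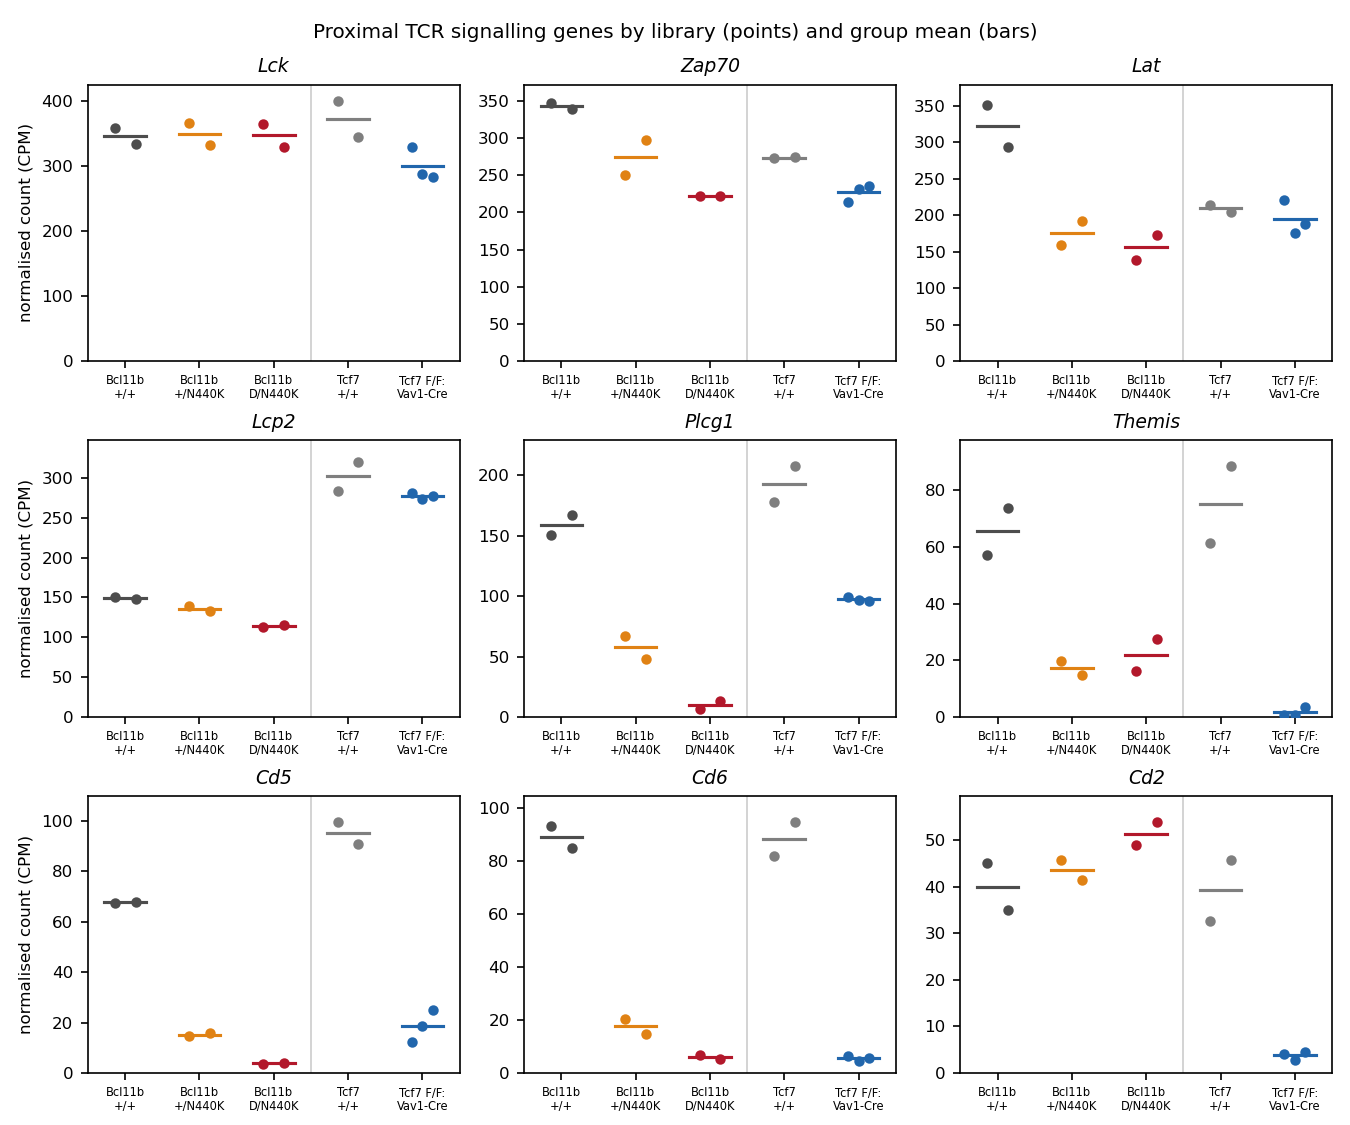
Level of each of the 9 genes in CPM (linear axes from 0) in each of the 11 libraries (points), with the group mean as a bar and the Bcl11b and Tcf7 tables on either side of the line. Lck lies between 283 and 399.5 CPM in every library, while Plcg1, Cd5 and Cd6 step down from Bcl11b +/+ to D/N440K, and Themis and Cd2 lie below 5 CPM in the F/F:Vav1-Cre-labelled libraries.

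Compared per length of exon, the 9 genes fell into tiers in Bcl11b +/+. Lck (118 ± 5.91 CPM per kb, SD, n = 2), Lat (116 ± 14.8) and Zap70 (115 ± 1.95) formed the top tier, and their library values overlapped. Lcp2 followed at 33.4 ± 0.413, then Cd2 at 22.9 ± 4.12 and Plcg1 at 20.2 ± 1.48 CPM per kb, with Cd2 and Plcg1 overlapping. Cd5 stood at 13.8 ± 0.0803, Cd6 at 11.2 ± 0.746 and Themis, the lowest, at 5.62 ± 1.00 CPM per kb. In D/N440K, Lck remained first at 119 ± 8.47 CPM per kb, and Plcg1 (1.28 ± 0.574), Cd5 (0.761 ± 0.0926) and Cd6 (0.749 ± 0.156) stood lowest by mean, below Themis (1.87 ± 0.678). Library values of Plcg1 and Themis overlapped there, as did those of Cd5 and Cd6. The order at the bottom was another one in the F/F:Vav1-Cre-labelled libraries, where Cd2 (2.17 ± 0.486), Cd6 (0.693 ± 0.122) and Themis (0.134 ± 0.131 CPM per kb, n = 3) were lowest by mean. Library values of Cd2 overlapped those of Cd5 there.

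Lck, the Src family kinase that starts the cascade, measured 359 and 335 CPM in Bcl11b +/+, 366 and 333 CPM in +/N440K, and 365 and 329.8 CPM in D/N440K. These 6 values overlapped throughout. The log2 fold change was 0.02 ± 0.0903 (SE) in +/N440K, with a 95% interval of -0.166 to 0.199, and 0.01 ± 0.0909 in D/N440K, with an interval of -0.175 to 0.193. On day 7 Lck measured 399.5 and 344 CPM in Tcf7 +/+, against 329, 288 and 283 CPM in the F/F:Vav1-Cre-labelled libraries. The groups did not overlap, but the difference of -0.31 ± 0.127 on the log2 scale was not called (edgeR adjusted p = 0.0862). It was called without Tcf7 +/+ replicate 2, at -0.42 (edgeR adjusted p = 0.00893, and 0.00893 to 0.394 over the 16 alternatives tried).

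Zap70, the kinase that docks on the phosphorylated receptor chains, measured 348 and 339.6 CPM in Bcl11b +/+, 251 and 298 CPM in +/N440K, and 223 and 222 CPM in D/N440K. The 3 genotypes did not overlap. In D/N440K the fall was -0.63 ± 0.0993 on the log2 scale (edgeR adjusted p = 8.50e-06). In +/N440K it was -0.33 ± 0.0954 (edgeR adjusted p = 0.0175). That smaller fall was lost without +/+ replicate 1 (edgeR adjusted p = 0.107), +/+ replicate 2 (0.0625) or +/N440K replicate 1 (0.319), and with DESeq2, with adjusted p-values of 0.00257 to 0.489 over 18 alternatives. On day 7 Zap70 measured 273 and 275 CPM in Tcf7 +/+, against 214, 232 and 235 CPM in the F/F:Vav1-Cre-labelled libraries, which lay below without overlap. The difference of -0.27 ± 0.124 was not called (edgeR adjusted p = 0.131).

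Syk, the relative of Zap70 used by B, NK and myeloid cells, went the other way. It measured 104 and 116 CPM in Bcl11b +/+, 164 and 145 CPM in +/N440K, and 238 and 207 CPM in D/N440K, without overlap. Syk rose by 1.01 ± 0.124 on the log2 scale in D/N440K (edgeR adjusted p = 5.37e-08) and by 0.49 ± 0.132 in +/N440K (edgeR adjusted p = 0.0109). The rise in +/N440K was lost without replicate 1 of +/+ or of +/N440K (edgeR adjusted p = 0.122 and 0.140). On day 7 Syk differed between the Tcf7 +/+ libraries themselves, at 267 and 151 CPM, and measured 277, 268 and 357 CPM in the F/F:Vav1-Cre-labelled libraries. That difference of 0.53 ± 0.193 was not called (edgeR adjusted p = 0.0572), but was without Tcf7 +/+ replicate 1, at 1.01 (edgeR adjusted p = 1.87e-07).

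Lat, the membrane scaffold that Zap70 phosphorylates, fell with the Bcl11b mutations. Lat measured 351 and 293 CPM in Bcl11b +/+, 159 and 193 CPM in +/N440K, and 139 and 173 CPM in D/N440K. Both mutant groups lay below +/+, and they overlapped each other. The log2 fold change was -0.87 ± 0.114 in +/N440K (edgeR adjusted p = 2.98e-07) and -1.05 ± 0.117 in D/N440K (edgeR adjusted p = 6.51e-09). On day 7 Lat measured 214 and 205 CPM in Tcf7 +/+, against 222, 175 and 189 CPM in the F/F:Vav1-Cre-labelled libraries, and the groups overlapped. Its difference there was -0.11 ± 0.138 (edgeR adjusted p = 0.628, 95% interval -0.398 to 0.184).

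Lat2, a related adaptor of B and myeloid cells, was lower than Lat per length of exon in every group but rose where Lat fell. It measured 28.6 and 29.1 CPM in Bcl11b +/+, 49.8 and 55.3 CPM in +/N440K, and 55.7 and 51.9 CPM in D/N440K. The rises were 0.85 ± 0.222 (edgeR adjusted p = 0.00694) and 0.90 ± 0.222 (edgeR adjusted p = 0.00346) on the log2 scale. They were not called with DESeq2. Nor was the first called without +/+ replicate 2 (edgeR adjusted p = 0.0619), or the second without D/N440K replicate 1 (edgeR adjusted p = 0.0514). On day 7 the values of Lat2 overlapped, at 34.9 and 27.1 CPM in Tcf7 +/+, against 35.6, 42.4 and 32.3 CPM in the F/F:Vav1-Cre-labelled libraries, and the difference was not called (edgeR adjusted p = 0.481).

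Lcp2, which encodes the adaptor SLP-76, moved little. It measured 150.4 and 148 CPM in Bcl11b +/+, 139 and 133 CPM in +/N440K, and 113 and 115 CPM in D/N440K, 3 steps without overlap. In D/N440K the difference was -0.39 ± 0.128 on the log2 scale, which edgeR called (adjusted p = 0.0375). That call was lost without each of +/+ replicate 1 (0.171), +/+ replicate 2 (0.147), D/N440K replicate 1 (0.218) and D/N440K replicate 2 (0.140), among edgeR and other adjusted p-values of 0.0264 to 0.630 over 18 alternatives. The difference of -0.13 ± 0.122 in +/N440K was not called (edgeR adjusted p = 0.636, 95% interval -0.377 to 0.118). On day 7 Lcp2 measured 284 and 320.2 CPM in Tcf7 +/+, against 281, 274 and 277 CPM in the F/F:Vav1-Cre-labelled libraries. These lay below without overlap, by -0.13 ± 0.123 (edgeR adjusted p = 0.513, 95% interval -0.384 to 0.134).

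Plcg1 encodes the phospholipase at the end of the proximal steps, and it fell in every comparison made within a table. Plcg1 measured 150.4 and 167 CPM in Bcl11b +/+ and 66.9 and 48.4 CPM in +/N440K. D/N440K held 6.85 and 13.2 CPM, which is 8 and 13 counts. The 3 genotypes formed 3 separate steps. In D/N440K the fall was -4.01 ± 0.235 on the log2 scale, 16.1-fold (edgeR adjusted p = 1.63e-16), and in +/N440K it was -1.45 ± 0.156 (edgeR adjusted p = 5.44e-09). On day 7 Plcg1 measured 178 and 208 CPM in Tcf7 +/+, against 99.5, 96.6 and 95.7 CPM in the F/F:Vav1-Cre-labelled libraries. The latter 3 lay close together and below both +/+ libraries. The fall there was -0.99 ± 0.142, 1.99-fold (edgeR adjusted p = 6.49e-05). The overlapping gene Zhx3 held 298 counts over the 6 Bcl11b libraries, where Plcg1 held 348 in the +/+ pair alone.

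Plcg2, which encodes the related phospholipase Cγ2 of B, NK and myeloid cells, rose against +/+ in each of the 3 mutant groups, where Plcg1 fell. Plcg2 was paired with Plcg1, and Lat2 with Lat, after their values were seen. It measured 221 and 230.0 CPM in Bcl11b +/+, 392.5 and 321 CPM in +/N440K, and 457 and 412 CPM in D/N440K, without overlap. Plcg2 rose by 0.67 ± 0.101 in +/N440K (edgeR adjusted p = 5.05e-06) and 0.95 ± 0.0989 in D/N440K (edgeR adjusted p = 1.35e-09). On day 7 it measured 279 and 203 CPM in Tcf7 +/+, against 463, 459 and 495 CPM in the F/F:Vav1-Cre-labelled libraries, a rise of 0.97 ± 0.141 (edgeR adjusted p = 7.42e-05). Between D/N440K and +/N440K, where Plcg1 fell too, Plcg2 was not called (0.28, edgeR adjusted p = 0.213), though it was without +/N440K replicate 1 (0.44, edgeR adjusted p = 0.0199). Per length of exon, Plcg2 stood above Plcg1 already in Bcl11b +/+ (52.5 against 20.2 CPM per kb), and at 101 against 1.28 CPM per kb in D/N440K.

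**Figure D2:**
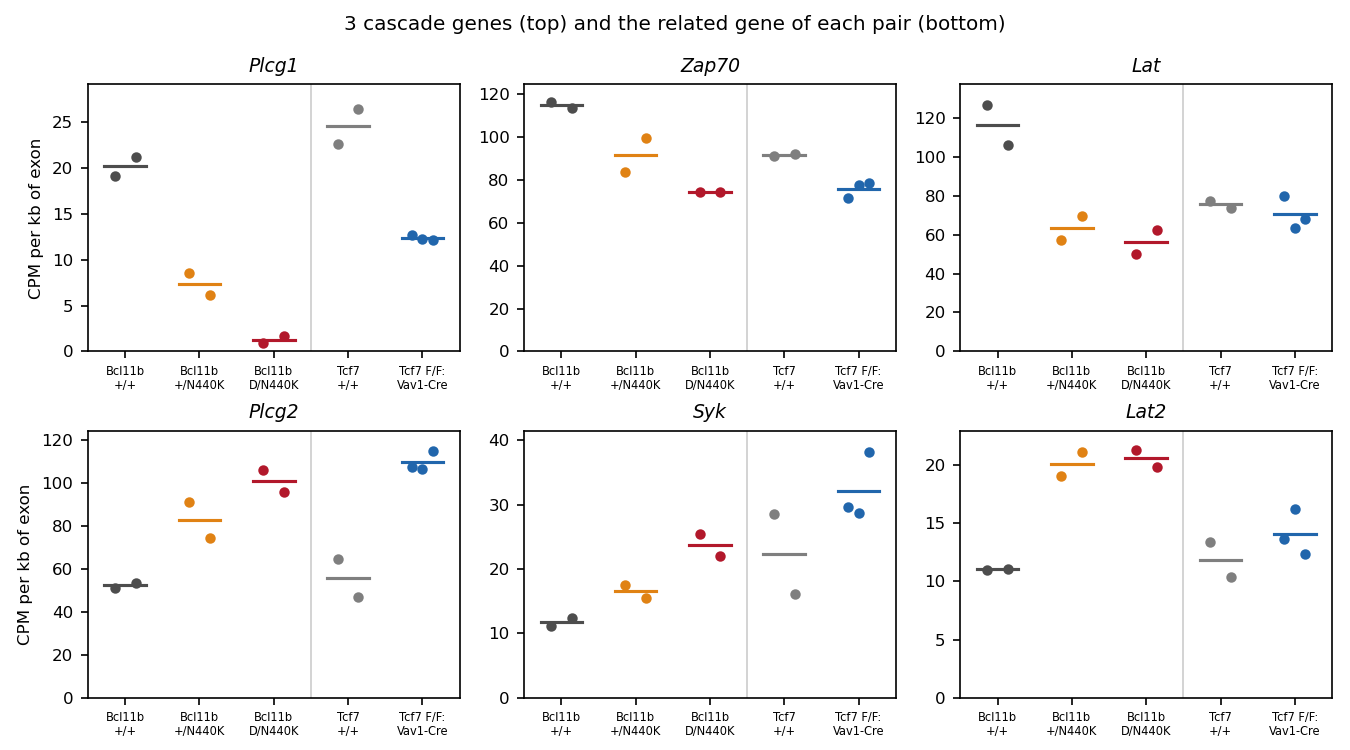
Plcg1, Zap70 and Lat (top) and their relatives Plcg2, Syk and Lat2 (bottom) in CPM per kb of exon (linear axes from 0, scaled separately), with libraries as points and group means as bars. In the Bcl11b table the top genes step down from +/+ to both mutant genotypes while the bottom genes step up, and Plcg2 means go from 52.5 to 82.98 and 101 CPM per kb.

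Themis fell in both tables. It measured 57.3 and 73.9 CPM in Bcl11b +/+, 19.6 and 14.8 CPM in +/N440K, and 16.3 and 27.5 CPM in D/N440K, so that both mutant groups lay below +/+ and overlapped each other. The log2 fold change was -1.92 ± 0.257 in +/N440K (edgeR adjusted p = 4.49e-07) and -1.62 ± 0.248 in D/N440K (edgeR adjusted p = 4.30e-06). On day 7 Themis measured 61.4 and 88.5 CPM in Tcf7 +/+. The F/F:Vav1-Cre-labelled libraries held 0.809, 0.565 and 3.34 CPM, which is 1, 1 and 6 counts. This fall of -5.43 ± 0.391 on the log2 scale was 43.2-fold (edgeR adjusted p = 2.26e-08), and -6.66 without F/F:Vav1-Cre replicate 3. At so few counts the size of the fall is imprecise.

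Cd5, a receptor whose surface level follows TCR signal strength in thymocytes, measured 67.5 and 68.1 CPM in Bcl11b +/+, 14.7 and 15.8 CPM in +/N440K, and 3.43 and 4.07 CPM in D/N440K, the last being 4 counts in each library. The 3 genotypes formed separate steps. Cd5 fell by 2.15 ± 0.250 on the log2 scale in +/N440K (edgeR adjusted p = 2.50e-08) and fell by 4.15 ± 0.345 in D/N440K, 17.7-fold (edgeR adjusted p = 3.04e-12). On day 7 it measured 99.7 and 90.8 CPM in Tcf7 +/+, against 12.1, 18.7 and 25.0 CPM in the F/F:Vav1-Cre-labelled libraries, a fall of 2.31 ± 0.232 (edgeR adjusted p = 1.16e-06).

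Cd6, the neighbour and relative of Cd5, measured 93.1 and 84.7 CPM in Bcl11b +/+, 20.4 and 14.8 CPM in +/N440K, and 6.85 and 5.09 CPM, or 8 and 5 counts, in D/N440K. Its steps did not overlap either. Cd6 fell by 2.30 ± 0.228 in +/N440K (edgeR adjusted p = 7.81e-10) and fell by 3.85 ± 0.293 in D/N440K, 14.4-fold (edgeR adjusted p = 2.73e-13). On day 7 Cd6 measured 81.7 and 94.7 CPM in Tcf7 +/+. The F/F:Vav1-Cre-labelled libraries held 6.47, 4.52 and 5.56 CPM, which is 8, 8 and 10 counts. The fall was -4.00 ± 0.253, 16.1-fold (edgeR adjusted p = 4.71e-09).

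Cd2, the adhesion receptor, fell in the Tcf7 comparison and was called in neither Bcl11b genotype. It measured 45.0 and 34.9 CPM in Bcl11b +/+, 45.7 and 41.5 CPM in +/N440K, and 48.8 and 53.9 CPM in D/N440K. The difference from +/+ was 0.15 ± 0.219 in +/N440K (edgeR adjusted p = 0.799, 95% interval -0.295 to 0.591), and 0.37 ± 0.213 in D/N440K (edgeR adjusted p = 0.312, interval -0.0572 to 0.807). On day 7 Cd2 measured 32.7 and 45.7 CPM in Tcf7 +/+. The F/F:Vav1-Cre-labelled libraries held 4.04, 2.83 and 4.45 CPM, which is 5, 5 and 8 counts and lies far below both +/+ libraries. Cd2 fell there by 3.36 ± 0.330 on the log2 scale, 10.3-fold (edgeR adjusted p = 8.28e-07). Cd48, which encodes its ligand, rose by 0.79 on the log2 scale in +/N440K and fell by 0.70 on day 7. The rise was lost with DESeq2 and without +/+ replicate 2 or +/N440K replicate 1, and the fall without F/F:Vav1-Cre replicate 3. In D/N440K Cd48 was not called (0.56, edgeR adjusted p = 0.0788), but it was without either +/N440K library (edgeR adjusted p = 0.0441 and 0.0444).

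Without either Tcf7 +/+ library in turn, the 5 falls of day 7 stayed called, at -1.10 and -0.87 for Plcg1, -5.67 and -5.14 for Themis, -2.23 and -2.37 for Cd5, -4.11 and -3.89 for Cd6, and -3.58 and -3.10 for Cd2 (without replicate 1 and 2).

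**Figure D3:**
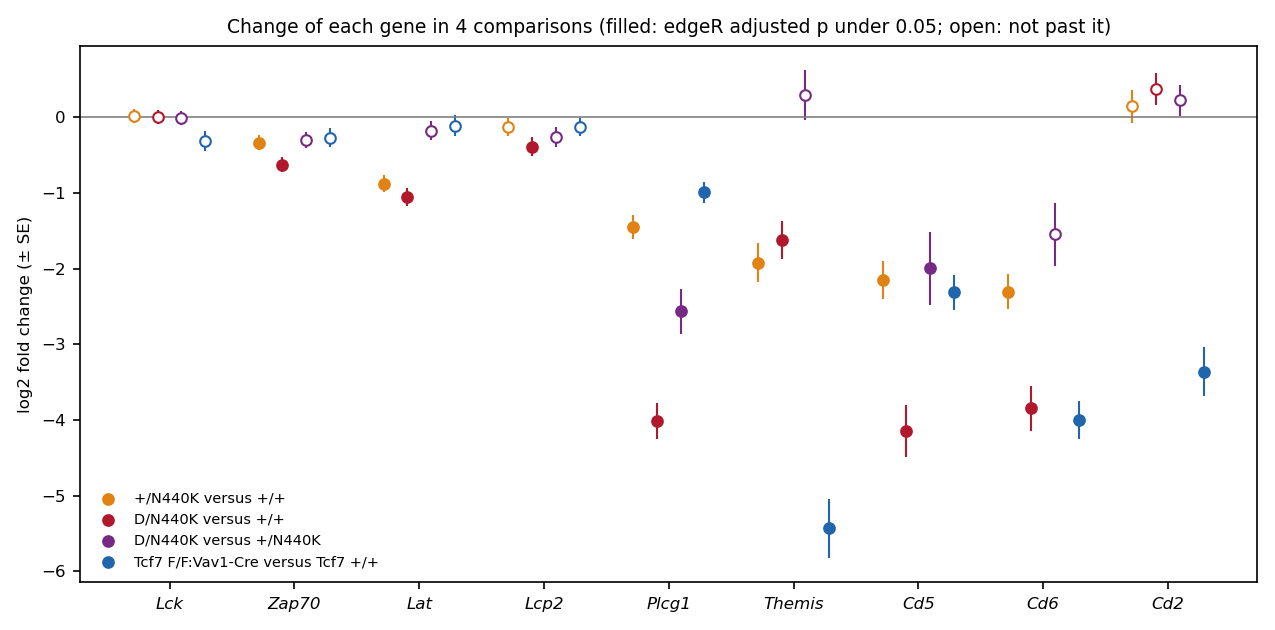
Log2 fold change ± SE of each gene in the 4 comparisons made within a table, filled where the edgeR adjusted p was under 0.05 and open where it was not. In D/N440K the values go from 0.37 for Cd2 to -4.15 for Cd5, and Cd2 and Themis hold the widest gaps between the Bcl11b and Tcf7 points.

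The allele labelled D beside N440K went with a further fall of Plcg1 and Cd5. Between D/N440K and +/N440K, 2 of the 9 genes fell and 0 rose, against 0.247% of all tested genes that fell and 0.284% that rose. Plcg1 differed by -2.57 ± 0.293 on the log2 scale, 5.92-fold (edgeR adjusted p = 5.05e-07). Cd5 differed by -2.00 ± 0.483 (edgeR adjusted p = 0.0324). The Cd5 call was lost without +/N440K replicate 1 (0.0760) or 2 (0.0960), without D/N440K replicate 1 (0.303) or 2 (0.132), with a replicate block (edgeR adjusted p = 0.0631), with DESeq2, with limma-voom and with only the groups compared, among 0.00486 to 1.0 over 18 alternatives. Cd6 lay lower without overlap, by -1.54 ± 0.418, and was not called (edgeR adjusted p = 0.0751). Zap70 (-0.30), Lcp2 (-0.26), Lat (-0.17), Lck (-0.01), Cd2 (0.23) and Themis (0.30) were not called either, with edgeR adjusted p-values of 0.284 to 0.995. The Themis interval was -0.364 to 0.966, so a further fall as large as that of Plcg1 lies outside it. Over all genes, 58 were called, and 91, 90, 25 and 35 without +/+ replicate 1, +/+ replicate 2, D/N440K replicate 1 and D/N440K replicate 2.

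Whether a gene changed differently with the 2 mutations was tested as the difference of the effects, each taken against its own +/+ libraries, over all 11 libraries. The 2 effects were measured at different ages and in separate experiments, so mutation, age and experiment cannot be told apart in any difference. The effects of D/N440K and of the Tcf7 genotype differed for 5 of the 9 genes, 3 lower and 2 higher in D/N440K, against 11.5% of 12249 tested genes, 5.83% lower and 5.66% higher. Plcg1 fell further in D/N440K, by a difference of effects of -3.02 ± 0.311 (edgeR adjusted p = 9.90e-08), as did Lat (-0.94 ± 0.198, edgeR adjusted p = 0.00178) and Cd5 (-1.85 ± 0.498, edgeR adjusted p = 0.0132). Cd2 and Themis fell further in the F/F:Vav1-Cre-labelled libraries, by differences of 3.72 ± 0.394 (edgeR adjusted p = 1.38e-07) and 3.80 ± 0.566 (edgeR adjusted p = 2.23e-05). The Cd5 difference was not called without D/N440K replicate 1 (edgeR adjusted p = 0.130) or 2 (0.0698), among 0.00385 to 0.130 over 19 alternatives. The Themis difference was 5.00 without F/F:Vav1-Cre replicate 3. For Cd6 the difference was 0.15 ± 0.481 (edgeR adjusted p = 0.895), with an interval of -0.843 to 1.14, next to log2 fold changes of -3.85 and -4.00. Zap70 (edgeR adjusted p = 0.165), Lck (0.218) and Lcp2 (0.377) were not called. The Lck difference was called without Tcf7 +/+ replicate 2 (edgeR adjusted p = 0.0492).

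**Figure D4:**
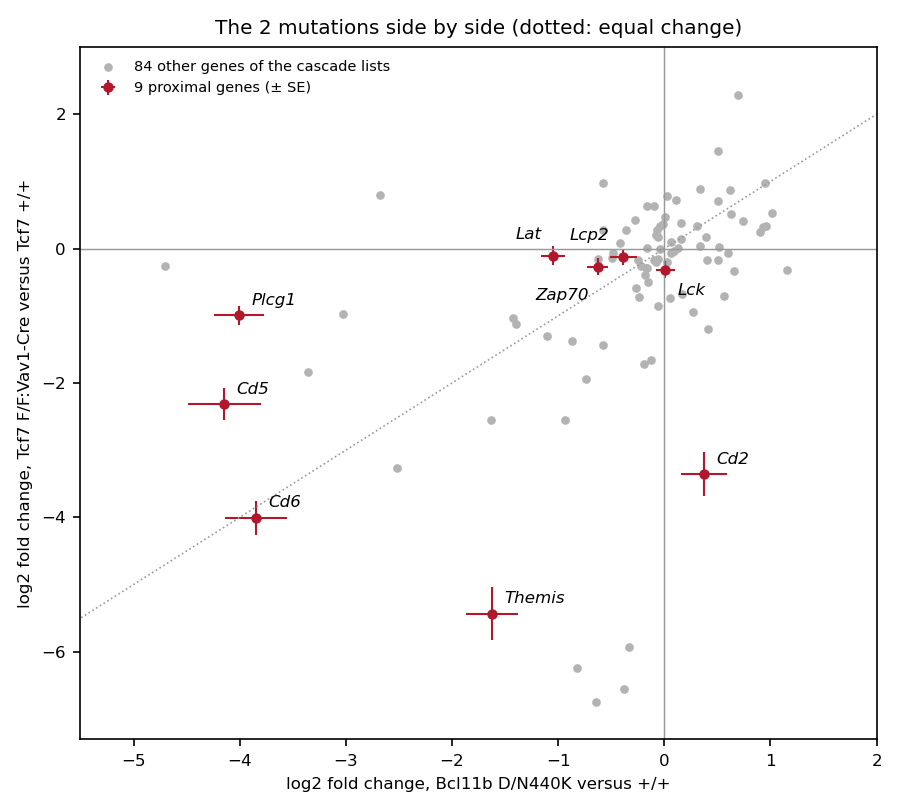
Log2 fold change of each gene in Bcl11b D/N440K (horizontal) and in the F/F:Vav1-Cre-labelled libraries (vertical), each against its own +/+ group, with SE bars for the 9 genes and grey points for 84 other cascade genes. Cd6 lies on the dotted line of equal change, Plcg1, Cd5 and Lat above it, and Themis and Cd2 below it.

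For +/N440K, whose effect was set against that of Tcf7 in the same way, 4 of the 9 genes differed, 1 lower and 3 higher, against 11.4% of tested genes, 5.75% lower and 5.63% higher. Themis (3.50 ± 0.584, edgeR adjusted p = 0.000117) and Cd6 (1.69 ± 0.382, edgeR adjusted p = 0.00335) fell less in +/N440K than on day 7. Cd2, which fell on day 7 and was not called in +/N440K, differed by 3.50 ± 0.399 (edgeR adjusted p = 5.92e-07). Lat fell further, by a difference of -0.76 ± 0.196 (edgeR adjusted p = 0.0106). The Lat difference was lost without replicate 1 of Bcl11b +/+ or of +/N440K (edgeR adjusted p = 0.109 and 0.115), and the Cd6 difference was lost without +/N440K replicate 1 (edgeR adjusted p = 0.0745). Themis differed by 4.70 without F/F:Vav1-Cre replicate 3. Plcg1 (-0.46, edgeR adjusted p = 0.232) and Cd5 (0.16, edgeR adjusted p = 0.848), which differed for D/N440K, were not called here. Over all genes, 1394 differences were called for +/N440K and 1407 for D/N440K. Without Bcl11b +/+ replicate 1 these were 807 and 861, and without Tcf7 +/+ replicate 1 they were 2587 and 2642. For +/N440K they were 885 without Bcl11b +/+ replicate 2 and 865 without +/N440K replicate 1, and for D/N440K 928 and 932 without D/N440K replicate 1 and 2.

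Around the 9 genes, 88 other genes of the cascade were grouped by role. In +/N440K 20 of 84 tested fell and 12 rose, in D/N440K 20 fell and 16 rose, and in the Tcf7 comparison 27 of 86 fell and 16 rose. Of all tested genes, 5.3% fell and 4.79% rose in +/N440K, 6.31% and 6.1% in D/N440K, and 11.1% and 12% on day 7, the shares against which the counts of each role stand. Their median log2 fold changes were -0.04, -0.07 and -0.07, against -0.87, -1.05 and -0.99 for the 9 genes. With DESeq2 the Bcl11b counts were 9 falls and 4 rises in +/N440K, and 11 falls and 10 rises in D/N440K. Over all 23531 genes with a count, many below the edgeR filter, it called 150 falls and 162 rises, and 217 falls and 243 rises. Run on the 10910 genes edgeR tested, DESeq2 called 184 falls and 173 rises in +/N440K, and 259 falls and 269 rises in D/N440K. Without F/F:Vav1-Cre replicate 1, 10 rose in the Tcf7 comparison. Between D/N440K and +/N440K 3 fell and 2 rose of 84, counts that were 0 and 0 without +/N440K replicate 2 or D/N440K replicate 1, and 0 and 1 without D/N440K replicate 2.

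Of the 5 receptor signalling chains, to which Lck and Zap70 bind, 4 fell in +/N440K, 3 in D/N440K and 4 on day 7. Cd3d fell by 0.78 and 0.83 on the log2 scale with the Bcl11b mutations and fell by 6.25 on day 7. Cd247, the ζ chain, fell by 1.13, 1.43 and 1.03, and Cd3e by 0.71, 1.11 and 1.30. Cd3g fell by 0.64 in +/N440K and by 1.67 on day 7. Fcer1g, the γ chain that NK and myeloid cells use, rose by 0.61 and 0.63 with the Bcl11b mutations.

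Among co-receptors and costimulatory receptors, 6 fell and 3 rose of 12 tested in either Bcl11b genotype, and 7 fell and 1 rose of 13 on day 7. Cd8a and Cd8b1, which encode the chains of the CD8 co-receptor, fell in all 3 comparisons: Cd8a by 1.88, 3.03 and 0.97 and Cd8b1 by 4.39, 3.35 and 1.83. Cd4 fell by 2.80 and 2.68 with the Bcl11b mutations and rose by 0.80 on day 7. Cd28 fell by 5.92 on day 7 and was not called in either Bcl11b genotype (0.15 and -0.34). Cd27 fell by 0.40, 0.74 and 1.94. Slamf1 fell by 2.82, 2.52 and 3.27, and Slamf6 by 2.80, 1.63 and 2.56. Cd226, an activating receptor of NK and T cells, rose by 0.87 and 1.15 with the Bcl11b mutations, and Cd244a, another NK receptor, by 0.60 and 0.95. Ly9 rose by 0.51 in D/N440K.

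Among the 8 tested kinases of the Src, Syk and Tec families, 2 fell and 2 rose in +/N440K, 2 fell and 3 rose in D/N440K, and 1 fell and 1 rose on day 7. On day 7 these shares, 12.5% each, were near those of all tested genes. Blk, a Src kinase of B cells and γδ T cells, fell by 3.26 and 4.70 with the Bcl11b mutations and was not called on day 7 (-0.26), though it was without Tcf7 +/+ replicate 1 (-0.43). Fyn, the Src kinase next to Lck, fell by 0.50 on day 7, a call lost without F/F:Vav1-Cre replicate 3, and was called in neither Bcl11b genotype. Of 8 regulators of Src kinases, 1 rose in +/N440K, 2 rose in D/N440K, and 2 fell and 1 rose on day 7, where 1 of 8 is again near the share of all genes. Pag1, which anchors Csk, rose by 0.41 in D/N440K and fell by 1.20 on day 7. Ptprc, which encodes CD45, fell by 0.68 on day 7, and Csk itself was called in no comparison.

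Adaptors of the Lat and SLP-76 complex gave 3 falls and 2 rises of 18 in +/N440K, 2 falls and 3 rises in D/N440K, and 7 falls and 2 rises on day 7. The rises on day 7, 11.1% of the list, were near the share of all genes. Nck2 fell by 0.69, 0.87 and 1.38. On day 7 Trat1 held 1 count against 108 in Tcf7 +/+ (ratio 146, 95% counting interval 25.7 to 5830), and Sh2d1a, the adaptor SAP, held 2 against 164 (ratio 111, interval 30.2 to 924). Neither was called in the Bcl11b genotypes. Skap1 fell by 0.72 on day 7, Itpkb was called in no comparison, and Clnk, a relative of SLP-76, rose by 0.62, 0.69 and 2.28.

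Negative regulators gave 3 falls and 1 rise of 15 in +/N440K (20% and 6.67%), 5 and 2 in D/N440K (33.3% and 13.3%), and 4 and 5 of 16 on day 7 (25.0% and 31.2%). Dgka, which removes diacylglycerol made by phospholipase Cγ1, fell by 0.34, 0.58 and 1.44. Sit1 fell by 0.92, 1.40 and 1.13, and in +/N440K was not called without +/+ replicate 2 (-0.49), +/N440K replicate 1 or +/N440K replicate 2. Ubash3a fell by 0.94 in D/N440K and 2.55 on day 7, Cbl by 0.40 on day 7, and Dok1 rose by 1.45 on day 7. Downstream of phospholipase Cγ, 2 of 18 fell and 2 rose in each Bcl11b genotype, and 2 fell and 6 rose on day 7. The falls on day 7, 11.1% of the list, equal the share of all genes. Prkcq, the protein kinase C θ of T cells, fell by 1.72 on day 7, Nfatc1 rose by 0.72 there, and Pik3cd was called in no comparison.

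Of the remaining calls lost without 1 library, in +/N440K these were Cd27 (without +/+ replicate 1 or +/N440K replicate 2), Cd226 (without +/+ replicate 1), Nck2 (without +/+ replicate 1 or +/N440K replicate 1) and Dgka (without +/+ replicate 1 or either +/N440K library). In D/N440K they were Slamf1 (without +/+ replicate 2 or D/N440K replicate 2), Ly9 (without D/N440K replicate 1) and Sit1 (without +/+ replicate 2 or D/N440K replicate 1), and on day 7 Cbl (without F/F:Vav1-Cre replicate 2 or 3). Values moved by over 1.5-fold for Slamf6 in +/N440K without +/N440K replicate 1 (-3.50), Slamf1 in D/N440K without D/N440K replicate 1 (-3.87) and Cd28 on day 7 without F/F:Vav1-Cre replicate 2 (-6.54). Calls were gained for Fcer1g (0.96), Cd226 (-0.44) and Pik3cd (0.49) on day 7 without Tcf7 +/+ replicate 1, and for Cbl in +/N440K without +/+ replicate 2 (-0.29).

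Markers of other cell types moved with these changes. The 9 markers of double-negative and double-positive thymocytes summed to 649 to 653 CPM in Bcl11b +/+, 59.2 to 60.4 CPM in +/N440K and 48.0 to 69.2 CPM in D/N440K, and 7 of 7 tested fell in both. Dntt was at 0 counts in both mutant genotypes. On day 7 they summed to 954 to 981 CPM in Tcf7 +/+ and 449 to 453 CPM in the F/F:Vav1-Cre-labelled libraries, where 7 of 8 tested fell, 1 rose, and Rag2 and Dntt were at 0. Cd4, which rose, Cd8a and Cd8b1 made up most of the latter sum. The other 6 genes, split off after their values were seen, summed to 523 to 582 CPM in Tcf7 +/+ and 7.28 to 10.01 CPM in the F/F:Vav1-Cre-labelled libraries. In the Bcl11b table the same 6 summed to 369 to 376 CPM in +/+, 2.96 to 13.1 CPM in +/N440K and 13.7 to 34.6 CPM in D/N440K. The 6 NK and ILC1 markers summed to 259 to 293 CPM in Bcl11b +/+, 626 to 664 CPM in +/N440K and 796 to 844 CPM in D/N440K, with 5 of 6 higher in +/N440K and 6 of 6 higher in D/N440K. On day 7 they went the other way, at 327 to 495 CPM in Tcf7 +/+ and 196 to 235 CPM in the F/F:Vav1-Cre-labelled libraries, with 4 of 6 lower. The 5 γδ T cell markers, Blk among them, summed to 1098 to 1305 CPM in Bcl11b +/+, 334 to 375 CPM in +/N440K and 206 to 209.8 CPM in D/N440K. Of these, 4 of 5 were lower in +/N440K and 5 of 5 in D/N440K. On day 7 they summed to 1005 to 1202 CPM in Tcf7 +/+ and 734 to 773 CPM in the F/F:Vav1-Cre-labelled libraries. There 2 of 5 were lower and 1 was higher, and Blk was not called. The 7 myeloid markers summed to 127 to 168 CPM in Bcl11b +/+, 226 to 268 CPM in +/N440K and 311 to 321 CPM in D/N440K, with S100a9 and Elane at 0. Of 5 myeloid markers tested, 2 were higher in +/N440K and 3 in D/N440K. On day 7 the myeloid markers summed to 382 to 648 CPM in Tcf7 +/+ and 976 to 1115 CPM in the F/F:Vav1-Cre-labelled libraries. Elane was at 0 there, and 2 of 4 tested were higher. The 5 mature αβ T cell markers summed to 478 to 533 CPM in Bcl11b +/+, 365 to 373 CPM in +/N440K and 343 to 364 CPM in D/N440K, with 2 and 3 of 4 tested lower. On day 7 they went from 332.5 to 350.6 CPM to between 229.8 and 240.2 CPM, with 3 of 5 lower, 1 higher and Cd40lg at 0. The 5 ILC2 markers, of which Gata3 is also a T lineage marker, summed to 508 to 512.5 CPM in Bcl11b +/+, 369 to 417.5 CPM in +/N440K and 307 to 348 CPM in D/N440K, with 1 and 3 lower. On day 7 they were at 391 to 459 CPM in Tcf7 +/+ and 665 to 819 CPM with the Tcf7 genotype, with 3 higher. B cell markers summed to at most 34.0 CPM in the Bcl11b table, with Ms4a1 and Pax5 at 0 in each group and the 1 tested marker lower in D/N440K, and to 150.5 to 158 CPM in Tcf7 +/+ against 43.5 to 56.6 CPM, with 5 of 6 lower. Stromal markers went from 193 to 214 CPM up to 342 to 385 CPM on day 7, with 2 of 3 tested higher, and mast cell markers from 2.25 to 5.64 CPM up to 8.90 to 57.1 CPM, with 2 of 2 higher. In the Bcl11b groups none of the tested stromal markers was called and no mast cell marker was tested. Dendritic cell markers gave 1 lower and 1 higher of 6 in each Bcl11b genotype and 2 higher on day 7, and 3 of 4 tested erythroid markers were higher in D/N440K. The part of these cells in the changes of the 9 genes was not tested.

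The genes most like the 3 that fell most in D/N440K were named by the root mean square difference of log2 CPM over the 11 libraries, each library taken from the mean of its table's +/+ group, among 10253 genes. For Plcg1 they were Cd8a (0.47), Vdr (0.55) and Ccr9 (0.65), for Cd5 Gm26930 (0.59), Pde4d (0.60) and Gm37534 (0.61), and for Cd6 Igfbp4 (0.57), D130019J16Rik (0.67) and Gm37534 (0.69). Within the 9 genes the closest pair was Zap70 and Lcp2 (0.18), followed by Lck and Lcp2 (0.22), while Cd5 and Cd6 were 0.81 apart, Plcg1 and Cd5 0.81, and Lcp2 and Themis, the farthest pair, 2.67. These are descriptions over libraries that share the groups, with no test.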

How the data were processed

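RNA of 11 sorted thymocyte libraries was analysed, grouped by their titles. A version of RamDA-seq (oligo(dT) and not-so-random primers), followed by Tn5 and PCR without molecular identifiers, gave the cDNA, per the labels' protocols. The authors deposited 1 table of raw counts per gene and 1 table of CPM for each of the Bcl11b and Tcf7 experiments. The tools were HTSeq 0.11.2, STAR 2.7.3a, Picard 2.21.1, fastp 0.20.0, SAMtools 1.9 and edgeR on mm10 (GRCm38), per the submitters' processing notes. The annotation release and the strand of counting are not given in the sources used here. Each deposited CPM value is its count scaled by the TMM factor and the library total. That total is summed over the tested genes only, so it is not the total count over all genes given above. On this basis 100% of values gave back whole counts within 0.001. With those reads, edgeR called the same numbers of genes (1101, 1353, 58 and 2863).

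Deposited counts were tested with edgeR 4.0.16 in R 4.3.3: filterByExpr (minimum count 10), TMM, and the quasi-likelihood test with a coefficient per group, all libraries of a table in 1 fit, two-sided. Genes were called at a Benjamini-Hochberg adjusted p under 0.05 over all 10910 or 12366 tested genes. The difference of effects between tables used 1 fit of all 11 libraries over 12249 genes. The residual degrees of freedom were 3, 3 and 6. The script was tested on simulated data. Levels are the deposited CPM, and for genes without a deposited CPM the same measure computed from the counts. They were divided by the exon length of GENCODE M21 where genes are compared. Total counts of 999381 to 1842717 limit the precision of genes with few counts, and intervals of count ratios cover counting error only. Where 1 library was left out of a pair, the lone library was assumed to vary like the other groups.

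The 9 genes, the lists around them and the promoter letters were chosen with earlier results of these data known. Named among the listed genes were those called in a comparison within a table by 1 or more on the log2 scale, and the 2 of highest level in each list. Plcg2, Lat2 and Cd48 were added after their values were seen. A gene of the kinase list that this rule names is not reported here. Alternatives tried were upper-quartile or RLE normalization, a stricter filter (CPM of 5 in 2 libraries) or none, DESeq2 1.42.0, limma-voom (limma 3.58.1), limma on log2 of the authors' CPM plus 1 or 0.25, fitting only the groups compared, a replicate block, and leaving out each library. Reads recovered from the CPM, and DESeq2 on the genes edgeR tested, were chosen after seeing the data. Figures used Python 3.11.15 with matplotlib 3.10.9.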

Additional observations from a re-analysis of the deposited data

How the results depend on the processing

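Of 972 values of the 9 genes under alternatives, 936 kept their side of the threshold, 31 lost and 5 gained a call. The 936 include the values from reads recovered from the authors' CPM. Those reads equal the deposited counts, so these values could not change. Of the 936, 20 changed sign without being called either way, and 0 called values changed sign. The count of falls between D/N440K and +/N440K was 2, and 1 with DESeq2 (on all genes or on the genes edgeR tested), limma-voom, a replicate block or only the groups compared, and 1 to 2 with a library left out. For the difference between the +/N440K and Tcf7 effects, the count of genes that fell further in +/N440K was 1, and 0 to 1 with a library left out. For Cd6 between D/N440K and +/N440K, limma on the authors' CPM made a call (adjusted p = 0.0214 and 0.0193 with pseudocounts of 1 and 0.25). The Cd5 difference between D/N440K and Tcf7 was lost with DESeq2 (adjusted p = 0.0831) and limma-voom (0.0607).

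Deviations of same-numbered libraries correlated at -0.0304 to 0.00403 across genes in the Bcl11b table, and at -0.143 and 0.0775 in the Tcf7 table. In a group of 2 libraries the deviations mirror each other. The Bcl11b pairs also spread little beyond counting error, with a chi-square per degree of freedom of 1.14 to 1.42. These correlations therefore cannot show whether same-numbered libraries were paired. With a replicate block, Lcp2 in D/N440K (edgeR adjusted p = 0.0515), Cd5 between D/N440K and +/N440K (0.0631) and Cd5 between D/N440K and Tcf7 (0.0558) lost their calls, no other call of the 9 genes changed, and all-gene calls between D/N440K and +/N440K went from 58 to 37.

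Over all genes, DESeq2 called 312, 460, 2 and 1819 genes in the 4 comparisons within a table, and 813 and 781 in the differences of effects, against 1101, 1353, 58, 2863, 1407 and 1394 by edgeR. On the genes edgeR tested it called 357, 528, 4, 1961, 898 and 859. Among the genes named outside the 9, DESeq2 lost the +/N440K calls of Cd3d, Cd27, Cd226, Cd48, Slamf1, Syk, Nck2, Lat2, Clnk, Sit1 and Dgka. In D/N440K it lost those of Cd3d, Slamf1, Slamf6, Ly9, Nck2, Lat2, Ubash3a and Sit1. Without a filter, edgeR called 91 genes between D/N440K and +/N440K and 1606 in the Tcf7 comparison, where 9 other cascade genes rose in place of 16. The cause was not tested. At 1 to 13 counts a library, the low levels of Plcg1, Cd5 and Cd6 in D/N440K and of Themis, Cd6 and Cd2 on day 7 are limited by depth. Summed over the F/F:Vav1-Cre-labelled libraries, Cd3d held 7 counts, Cd28 held 10 and Slamf1 held 10. Slamf1 held 5 counts over +/N440K and 6 over D/N440K. The sizes of these falls are imprecise too.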
